A study of Caenorhabditis elegans with 2 samples.

Results

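The vacuolar proton pump and autophagy genes of the nematode Caenorhabditis elegans were examined for binding by ZTF-26, a zinc finger protein. They were chosen by name as the protein-coding genes of the Ensembl WBcel235 annotation whose names begin with vha-, atg-, lgg- or epg-, with unc-51, bec-1 and unc-32 added. The rule found 46 genes, 21 of the pump and 25 of autophagy, among 19973 protein-coding genes. Binding had been mapped by chromatin immunoprecipitation and sequencing (ChIP-seq) with an anti-GFP antibody in strain OP565, whose genotype is unc-119(tm4063) III; wgIs565. This strain carries an integrated transgene for ZTF-26 with a C-terminal GFP-FLAG tag. The 1 group consisted of biological replicates 3 and 4, both of this strain and of pooled sexes, collected as young adults 56 hours after release from L1 starvation. Whole worms were used, so tissues could not be told apart, and no other strain, condition or untagged control was analysed here.

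The vacuolar ATPase pumps protons into lysosomes, endosomes and secretory vesicles. Its cytosolic V1 sector hydrolyses ATP and its membrane V0 sector carries the protons through a ring of proteolipid subunits. Autophagy encloses cytoplasm in a double membrane that grows from a start site, is marked by lipid-linked ATG8 proteins and delivers its contents to the acid lysosome. In the worm, pump and autophagy genes are known targets of HLH-30, the relative of mammalian TFEB, which binds the E-box CACGTG. Many worm genes lie in operons or are trans-spliced, so an annotated 5' end is often not the start of transcription.

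The optimal list held 1929 reproducible peaks on build ce11, the 1929 highest of 28233 pooled peaks by signal. The authors labelled the pooled list as peaks and background together, so an entry below the optimal list need not be a bound site. Signal is the authors' value for a peak, on a scale that no source at hand defines, and it ran from 90.2 to 1104 in the optimal list with a median of 131. It serves to describe and rank peaks inside a list, and where values of both replicates stand side by side, their ratio describes the lists and is no measure of a difference in binding. The replicates' own candidate lists held 30000 and 20373 peaks for replicates 3 and 4. Read counts were not given, so depth is unknown. A gene was counted when a summit, the highest point of a peak, lay in its window, which began 1000 bp before any annotated transcript 5' end and ended 500 bp after it. Fewer cells with ZTF-26 at a site and weaker binding per cell cannot be told apart in whole worms. At ztf-26 itself no pooled summit lay in the window.

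Of the 46 genes, 12 (26.1%, 95% exact interval 14.3 to 41.1) had an optimal summit in the window, against 5.69% of all protein-coding genes. The pump had 6 of 21 (28.6%) and autophagy 6 of 25 (24%). Within the pump, the V1 sector had 4 of 9 genes, vha-12, vha-8, vha-13 and vha-11, and the V0 sector 2 of 12, vha-1 and vha-2. The autophagy genes were epg-7 of the initiation step (1 of 4), atg-9, epg-8 and atg-2 of nucleation and membrane supply (3 of 6), and lgg-2 and lgg-1 of the conjugation step (2 of 11). Of the 4 late and metazoan-specific factors, none had one. The exact intervals of V1 (13.7% to 78.8%) and V0 (2.09% to 48.4%) overlapped widely, and the sectors and steps are too small to be ranked. These intervals cover counting error only, not variation between cultures. The genes were chosen with earlier results of these data known, so the contrast with 5.69% is a description only. The 12 genes rested on 14 distinct peaks, and no peak was shared by a pair of these genes.

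**Figure D1:**
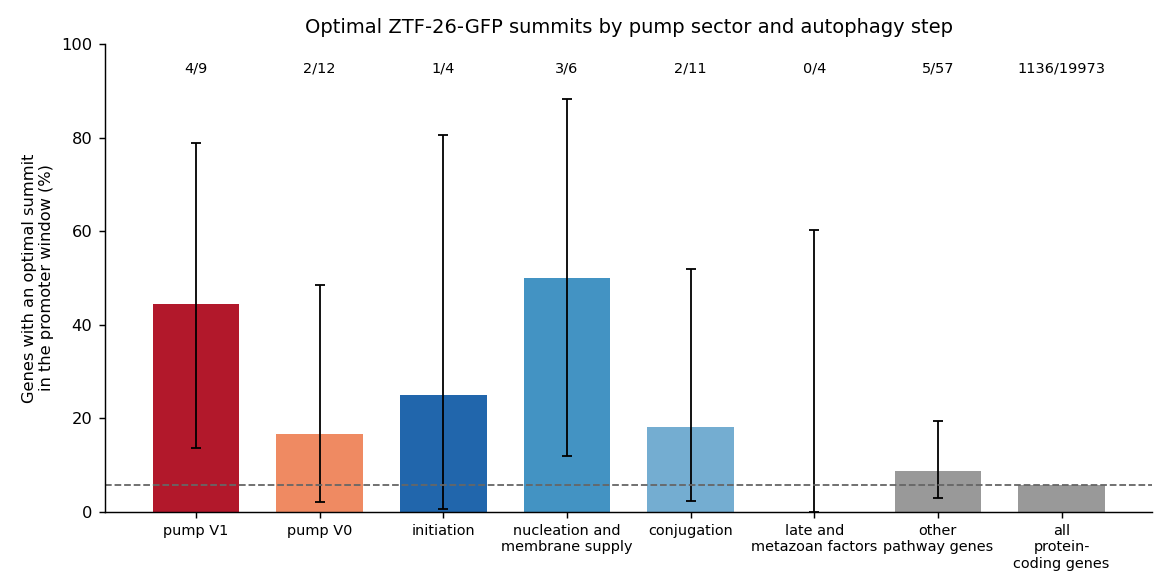
Percentage of genes with an optimal summit in the promoter window, by pump sector, autophagy step, other pathway genes and all protein-coding genes, with counts above the bars. Error bars are 95% exact binomial intervals and the dashed line marks the 5.69% of all protein-coding genes. V1 (4 of 9) and nucleation (3 of 6) had the highest bars, with intervals that overlap those of the other sectors and steps.

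Pooled entries of any rank, which may include background, were widespread among the same genes. A pooled summit of any rank lay in the window of 40 of 46 genes (87%), against 40.1% of all protein-coding genes. The share of genes with an optimal summit among those with any pooled summit was 12 of 40, beside 14.2% of all protein-coding genes with one. The strongest pooled signal in the window, taken as 0 where there was no summit, had a median of 51.6 over the 46 genes and 0 over all protein-coding genes. Each replicate was also read alone, with as many of its strongest peaks as the optimal list holds. Replicate 3 placed a summit at 14 of the 46 genes, beside 5.75% of all protein-coding genes, and replicate 4 at 14, beside 5.45%. All 12 genes with an optimal summit were in both sets of 14.

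**Figure D2:**
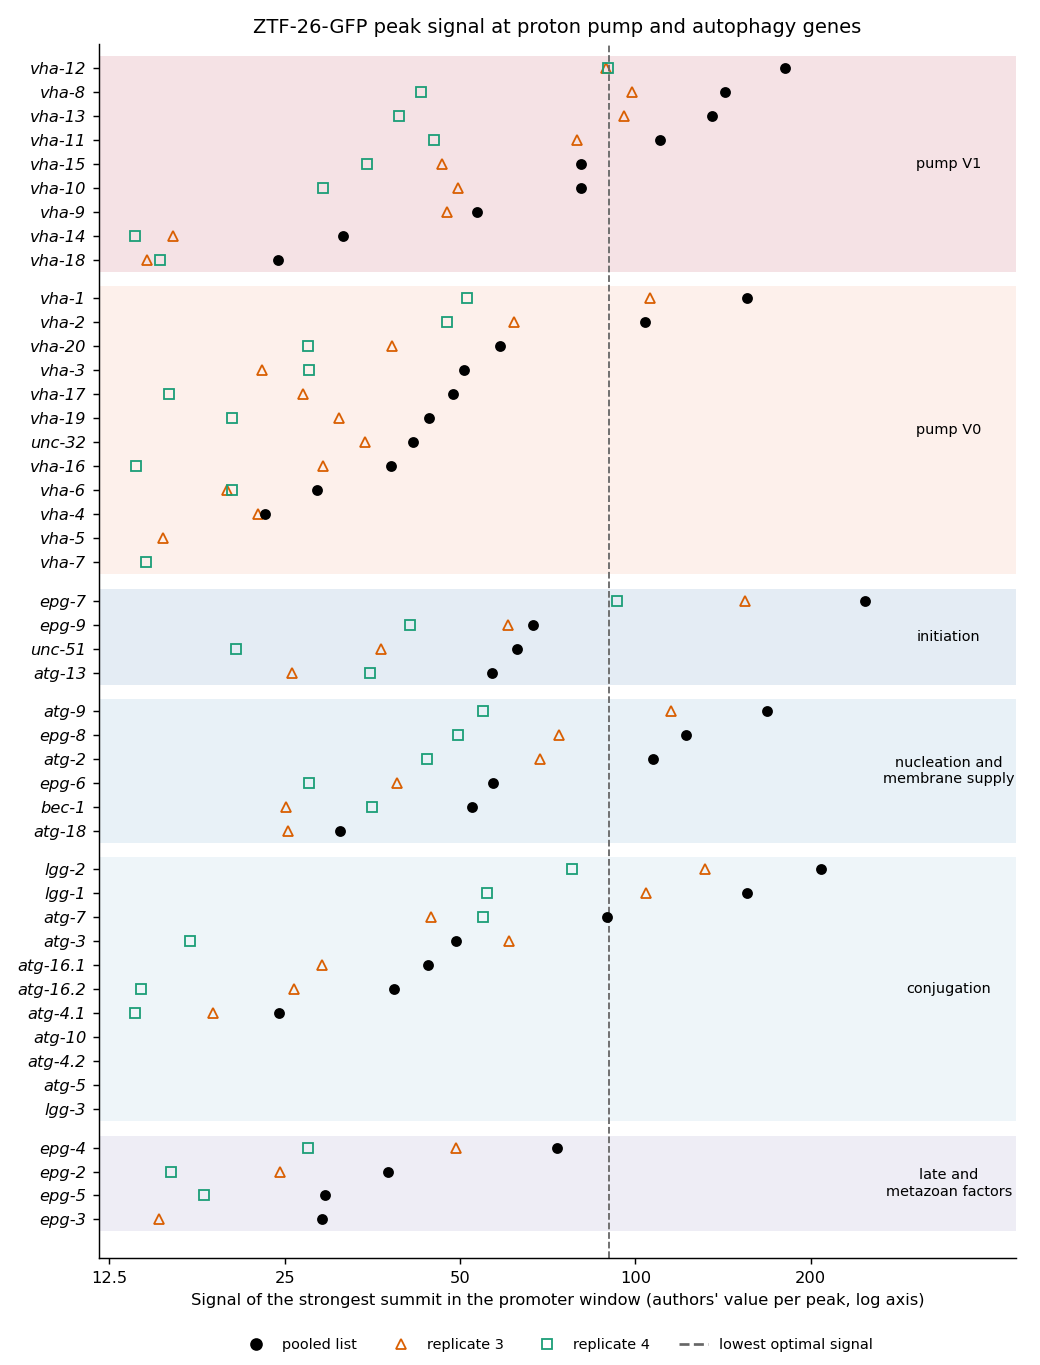
Signal of the strongest summit in the promoter window of each of the 46 genes (authors' value, log axis) in the pooled list (black dots), replicate 3 (triangles) and replicate 4 (squares). Genes run down the page by sector and step, and the dashed line is the lowest optimal signal, 90.2. The 12 genes to its right are led by epg-7 at 248, and 6 genes have no pooled summit.

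In the V1 sector, the strongest peak belonged to vha-12, which encodes the B subunit of the ATP-hydrolysing head. Its pooled signal was 181 (rank 447), with 89.0 in replicate 3 and 89.6 in replicate 4, and its summit lay in intergenic sequence 320 bp upstream. The gene vha-8, for subunit E of the peripheral stalk, had a pooled signal of 142 (rank 796), with 98.8 in replicate 3 and 42.8 in replicate 4. That summit was 440 bp upstream of vha-8 and 146 bp upstream of C17H12.2, a gene on the opposite strand, so it was nearer to the neighbour. The catalytic A subunit gene vha-13 (peak at chrV:14350943-14351382) had 135 (rank 901), with 95.5 and 39.3 in replicates 3 and 4. Its summit, 546 bp upstream, lay in the annotated 3' untranslated region of cept-2, the gene before it on the same strand. The gene vha-11, for subunit C, had 110 (rank 1330), with 79.2 in replicate 3 and 45.1 in replicate 4, and its summit was in its own intron 212 bp downstream of the 5' end. The window of the non-coding RNA gene Y38F2AL.11 also held it. Each of these V1 peaks ranked among the strongest 1929 of either replicate. The vha-12 peak ranked 874 of 30000 in replicate 3 and 216 of 20373 in replicate 4.

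The 101 bases around 3 V1 summits, from RefSeq's WBcel235 genome and on the strand of each gene, show the sequences behind these values at chrX:4190724-4190824, chrIV:6790584-6790684 and chrIV:2314305-2314405 on ce11. The summit is base 51, and capitals mark the words described further on, each on either strand: CTGCGTC at base 33 and ACGCAGA at base 61 of vha-12, and the word CTCTCTC at base 59 of vha-8. The vha-11 summit held none of them and was low in G and C (30.7%), against 56.4% at vha-12.
vha-12: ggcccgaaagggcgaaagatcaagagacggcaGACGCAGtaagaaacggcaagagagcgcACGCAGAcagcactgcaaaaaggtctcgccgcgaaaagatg
vha-8: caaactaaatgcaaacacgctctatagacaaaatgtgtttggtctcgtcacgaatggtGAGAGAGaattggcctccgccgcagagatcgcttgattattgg
vha-11: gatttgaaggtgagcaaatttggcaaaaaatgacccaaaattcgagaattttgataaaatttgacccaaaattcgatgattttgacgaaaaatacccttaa

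The other 5 V1 genes had pooled summits below the optimal list. The subunit H gene vha-15 reached 80.8 (46.6 in replicate 3 and 34.7 in replicate 4) and the subunit G gene vha-10 reached 80.5 (49.5 and 29.1 in replicates 3 and 4). These were the V1 values nearest below the threshold. The subunit F gene vha-9 had 53.6, with 47.4 in replicate 3 and no summit in replicate 4. The subunit D gene vha-14 (31.5) and vha-18 (24.4), the other subunit H gene, were lower, and the vha-18 summit lay in a coding exon of pos-1.

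In the V0 sector, both optimal peaks fell on genes of the proteolipid ring, the rotating part that carries protons across the membrane. The gene vha-1 had a pooled signal of 155.5 (rank 645), with 106 in replicate 3 and 51.4 in replicate 4. Its summit lay between divergent genes, 402 bp upstream of vha-1 and 498 bp upstream of sqv-3, a glycosyltransferase gene. The gene vha-2 had 104 (rank 1498), with 61.8 in replicate 3 and 47.6 in replicate 4, and its summit was in its own coding exon, 108 bp downstream of the 5' end. That summit was also in the window of R10E11.6, 734 bp upstream of it. The genes vha-1 and vha-2 lie on 1 strand of chromosome III, 400 bp apart, and are known as an operon, so the vha-2 peak sits within the transcribed unit.

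The 101 bases around these V0 summits, at chrIII:9780802-9780902 and chrIII:9782222-9782322 on the + strand of ce11, contrast an intergenic with a coding summit. Both have a GC content of 54.5% and neither holds any of the words, so no base is in capitals.
vha-1: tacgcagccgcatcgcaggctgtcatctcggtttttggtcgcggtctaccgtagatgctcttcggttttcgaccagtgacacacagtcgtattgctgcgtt
vha-2: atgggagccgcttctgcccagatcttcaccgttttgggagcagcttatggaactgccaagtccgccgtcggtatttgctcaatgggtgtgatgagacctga

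**Figure D3:**
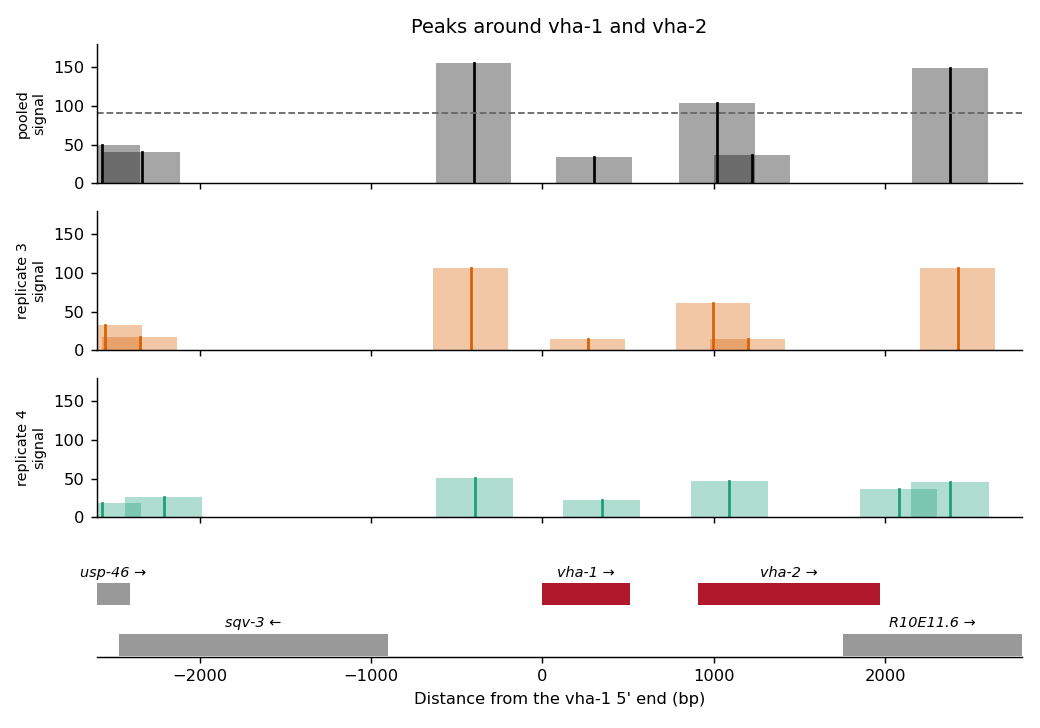
Peaks around the vha-1 5' end, over 2600 bp on its upstream side and 2800 bp on the other, in the pooled list, replicate 3 and replicate 4. Shaded boxes are peak intervals drawn to the height of their signal, vertical lines are summits, the dashed line is the lowest optimal signal, and the lowest panel shows protein-coding genes with arrows for their direction. Peaks upstream of vha-1 and inside vha-2 occur in all 3 lists, and a further peak lies over R10E11.6 beyond vha-2.

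The remaining V0 genes had weaker summits or none. The accessory gene vha-20 had 58.6 (38.2 in replicate 3 and 27.4 in replicate 4, at different summits), and the proteolipid genes vha-3 and vha-4 had 50.9 and 23.1. The genes vha-17 (48.6), vha-19 (44.3) and vha-16 (38.1), for subunit e, an Ac45-like accessory protein and subunit d, lay between them. Subunit a, which forms the proton path beside the ring, has 4 genes in the worm with different tissue patterns. None had an optimal summit in the window, beside 5.69% of all protein-coding genes with one, and 4 genes are too few to set them apart. Of these 4 genes, unc-32, the neuronal form, had 41.5 (34.3 in replicate 3 and no summit in replicate 4). The intestinal form, vha-6, had 28.4. No pooled summit lay in the windows of vha-5 and vha-7, where only a weak summit of 1 replicate was listed (15.5 in replicate 3 for vha-5, 14.5 in replicate 4 for vha-7).

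Among genes of autophagy initiation, epg-7 had the strongest peak that any of the 46 genes had in its window. It encodes a scaffold that works with the cargo receptor SQST-1. The pooled signal was 248 (rank 196), with 154 in replicate 3 (rank 223) and 93.2 in replicate 4 (rank 189), and the summit was intergenic, 183 bp upstream. Over all protein-coding genes, 142 had a stronger summit in their window. The kinase gene unc-51, the ATG1 of the worm, had 62.7, atg-13 had 56.8, and epg-9, for the ATG101 partner of ATG13, had 66.6 (60.3 in replicate 3 and 41.1 in replicate 4). In both replicates epg-9 was among the genes reached by the strongest 1929 peaks, but through different summits, 111 bp downstream of a 5' end in replicate 3 and 302 bp upstream of one in replicate 4. A stronger optimal peak, of signal 424, lay in an intron of epg-9 beyond its window and is described further on.

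Nucleation and membrane supply had 3 genes with an optimal summit. The gene atg-9, for the transmembrane protein of the vesicles that seed the autophagosome, had 168.5 (rank 539), with 115 in replicate 3 and 54.8 in replicate 4, its summit intergenic and 167 bp upstream. The gene epg-8, for the ATG14-like subunit of the Beclin 1 complex, had 122 (rank 1093), with 73.9 in replicate 3 and 49.6 in replicate 4. The gene atg-2 (peak at chrX:6808637-6809076), for the lipid transfer protein, had 107 (rank 1405), with 68.6 in replicate 3 and 43.9 in replicate 4. Its summit was in an intron, 238 bp upstream of an internal 5' end and inside the non-coding RNA gene M03A8.6, and it was not in the window of the outermost atg-2 5' end. The WIPI-family genes epg-6 and atg-18, whose products bind phosphoinositides, had 56.9 (39.02 in replicate 3 and 27.54 in replicate 4) and 31.1, and bec-1, the Beclin 1 gene, had 52.4.

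In the conjugation step, which attaches ATG8 proteins to lipid, the optimal peaks fell on both ATG8 genes. The LC3-like gene lgg-2 had 208.5 (rank 310), with 131.5 in replicate 3 and 77.9 in replicate 4, its summit intergenic and 290 bp upstream. A second optimal summit of signal 110 lay in an intron of lgg-2, 372 bp downstream. The GABARAP-like gene lgg-1 had 155 (rank 651), with 104 in replicate 3 and 55.6 in replicate 4, at a summit 872 bp upstream. It also had a second optimal summit, of signal 103, 168 bp upstream (77.9 in replicate 3 and 32.9 in replicate 4). They were the only members with more than 1 optimal summit in the window.

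The other conjugation genes had no optimal summit in the window, beside 5.69% of all protein-coding genes with one. They are too few for this to set them apart. The E1-like gene atg-7 was the closest of all members, with a signal of 89.3 at rank 1965, against 90.2 for the lowest optimal peak. It ranked 823 in replicate 4 (signal 54.7) and 3385 in replicate 3 (44.5). The E2-like gene atg-3 had 49.2, and the genes atg-16.1 and atg-16.2, for the partner of ATG5, had 44.0 and 38.5. The ATG8 protease gene atg-4.1 had 24.5. No pooled summit lay at atg-4.2, atg-5, atg-10 or lgg-3 (the ATG12 of the worm), and neither replicate listed one there.

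Late and metazoan-specific factors stood below the optimal list. The gene epg-4, related to mammalian EI24 of the endoplasmic reticulum, had 73.4 (49.2 in replicate 3 and 27.4 in replicate 4). The gene epg-2, needed to clear PGL granules, had 37.6. The lowest were epg-5, which acts when autophagosomes meet lysosomes, with 29.3, and epg-3, the VMP1 of the worm, with 29.0.

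The 101 bases around 4 autophagy summits carry the strongest autophagy peaks inside the windows. They lie at chrX:7334481-7334581 and chrV:349168-349268 on the + strand and chrIV:10936143-10936243 and chrII:6348541-6348641 on the - strand of ce11. Capitals mark CACGTG in epg-7 and atg-9 and CTCTCTC in lgg-1.
epg-7: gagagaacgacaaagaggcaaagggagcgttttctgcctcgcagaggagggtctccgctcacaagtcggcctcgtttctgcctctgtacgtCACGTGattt
atg-9: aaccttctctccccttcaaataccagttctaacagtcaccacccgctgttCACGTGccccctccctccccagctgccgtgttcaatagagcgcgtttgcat
lgg-2: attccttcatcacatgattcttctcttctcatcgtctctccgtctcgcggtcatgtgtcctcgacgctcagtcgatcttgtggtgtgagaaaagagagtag
lgg-1: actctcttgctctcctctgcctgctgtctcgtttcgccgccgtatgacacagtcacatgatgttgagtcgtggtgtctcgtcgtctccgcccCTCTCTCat

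Sequence words were counted in the 101 bases around the summit of the 12 genes, on either strand. The E-box core CACGTG, its own reverse complement, was present at 2 of 12, epg-7 and atg-9, and at atg-9 it began at the summit base. It was present at 8.24% of all optimal summits, at 6.92% of optimal and 2.94% of lower-ranked summits in protein-coding windows, and in 1.79% of 19973 promoter windows of the same length centred 150 bp upstream of each gene. The words ACGCAGA and CTGCGTC, which overlap when the second is read on the other strand, were both found at vha-12 and at no other of the 12, beside 7.88% and 7.98% of all optimal summits. GAGACGC was found at none of the 12 and at 8.29% of optimal summits. CTCTCTC was found at 3 of 12, vha-8, vha-13 and lgg-1, beside 9.90% of optimal summits and 2.67% of promoter windows. At least 1 of the 5 words was present at 6 of 12, beside 26.7% of optimal summits. The E-box core is the known site of HLH-30, and the other words had been picked out earlier on these same peaks. The presence of any of the 5 words is a description only. GC content at the 12 summits had a median of 54.5% and a range from 30.7% to 59.4%, beside a median of 46.5% at all optimal summits and 33.7% in promoter windows.

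Summits lay mostly upstream. Of the 12 strongest optimal summits, 10 were upstream of the nearest 5' end of their gene (83.3%), with a median distance of -265 bp, and over all 1136 protein-coding genes with one 86.1% were upstream, with a median of -254.5 bp. By annotation 8 of the 12 were intergenic, 2 intronic, 1 in a coding exon and 1 in a 3' untranslated region. Of the 983 optimal summits in protein-coding windows, 65.5% were intergenic, 19.5% intronic, 7.73% in a coding exon and 1.12% in a 3' untranslated region. Among protein-coding genes, the member had the nearest 5' end for 11 of the 12, the exception being vha-8. The atg-2 summit was nearer to the 5' end of the non-coding RNA gene M03A8.6, at 147 bp against 238 bp. The nearest gene for a tRNA, snoRNA, snRNA, microRNA or rRNA was at least 2340 bp from each of the 12 summits. Pieces of 30 bases from these windows were each found at 1 place in the genome.

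**Figure D4:**
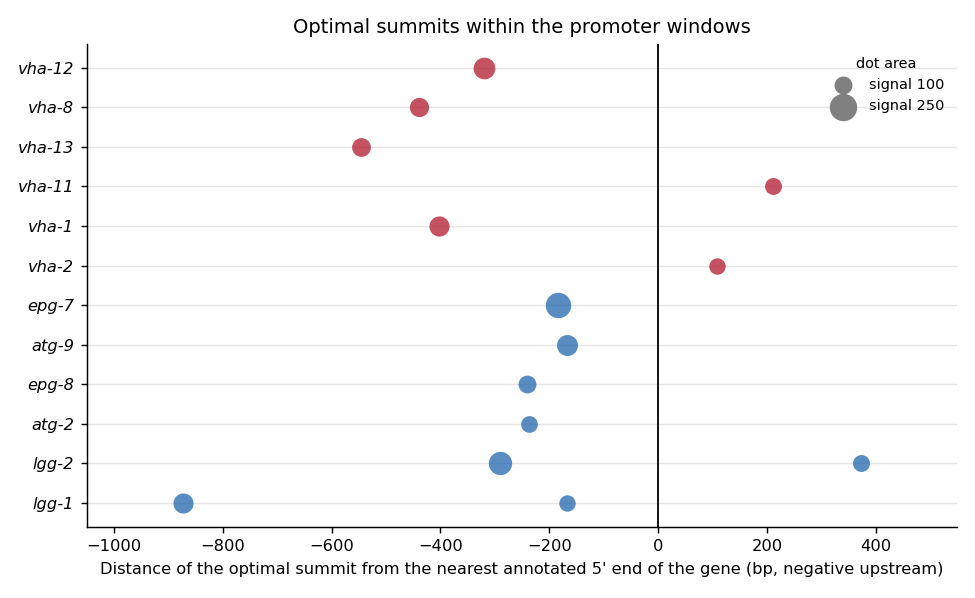
Distance in bp from the nearest annotated 5' end of the gene to each optimal summit in its window, for the 6 pump genes (red) and 6 autophagy genes (blue), with dot area proportional to signal. Negative distances are upstream. Only the summits of vha-11 and vha-2 and the second summit of lgg-2 lie downstream, and lgg-1 and lgg-2 have 2 dots each.

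Of the 46 genes, 33 had a summit in the window in both replicates. The strongest ones lay in overlapping peaks at 28 of these, including all 12 with an optimal summit, and at separate peaks in vha-18, vha-20, epg-9, bec-1 and atg-3. A pooled summit without any in replicate 4 was listed for vha-9, unc-32, vha-4, atg-18, atg-16.1 and epg-3, and without any in replicate 3 for epg-5. Spearman's rho between the replicates' signals was 0.832 over the 33 genes, 0.867 over the 28 and 0.573 over the 12. The points share the same 2 libraries and are not independent. The listed signal of replicate 3 over that of replicate 4 had a median ratio of 1.72 at the 12 genes and 1.73 over 1918 optimal peaks with a candidate in both. The ratio was highest at vha-13 and vha-8, with log2 values of 1.28 and 1.21, and lowest at vha-12, with -0.01. The spread of the log2 ratio was an SD of 0.48 over all optimal peaks, and 4.74% of them had a ratio lower than vha-12.

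**Figure D5:**
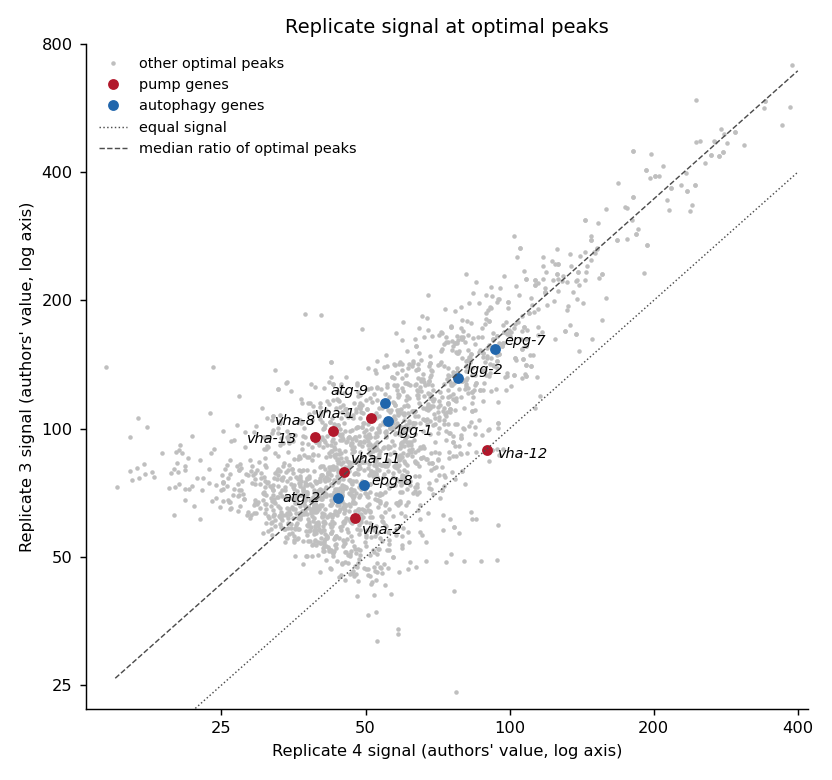
Signal in replicate 4 (x) and replicate 3 (y), both on log axes, for optimal peaks with a candidate in both replicates (grey) and the strongest summit of the 6 pump (red) and 6 autophagy genes (blue). The dashed line is the median ratio of 1.73 and the dotted line is equal signal. The point of vha-12 lies on the dotted line, and vha-8 and vha-13 lie above the dashed one.

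Optimal peaks also lay close to members whose window held none. With a window reaching 2000 bp upstream, 17 of 46 genes had an optimal summit, beside 7.62% of all protein-coding genes. Within 2000 bp on either side, a range chosen after the values were seen, the count was 20 of 46, beside 9.2% of all protein-coding genes. The strongest was in an intron of epg-9, 1028 bp downstream of a 5' end, with a signal of 424 (rank 51), 232.5 in replicate 3 and 191 in replicate 4. That gene had further optimal summits 513 bp downstream (108) and 1311 bp upstream (101). The next was 1361 bp upstream of unc-32, with 279 (rank 141), 168 in replicate 3 and 99.9 in replicate 4, but it was 123 bp from the 5' end of lin-9, a gene of the DREAM repressor complex.

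The other summits beyond the window were mostly nearer to another gene. The peak 1966 bp upstream of atg-7 (signal 193) was in the windows of klc-1 and let-70 and 126 bp from the snoRNA gene M7.15. That 518 bp downstream of atg-3 (109) was 32 bp upstream of rbm-39. The peak 1134 bp downstream of the vha-10 5' end (147) was 295 bp upstream of ubl-5. At vha-3 the nearest optimal summit was that of vha-11, 1590 bp downstream of the vha-3 5' end. These genes lie on 1 strand of chromosome IV, 892 bp apart, and are known as an operon. The peak 1901 bp upstream of vha-5 (114) had 98.4 in replicate 3 and no overlapping candidate in replicate 4. The peak 1177 bp upstream of vha-9 (103) was 48 bp from a tRNA gene, in an intron of gcy-4.

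A list of 57 further genes that work with the pump and autophagy, from nutrient control to lysosomal enzymes, had 5 with an optimal summit (8.77%, 95% exact interval 2.91 to 19.3), beside the 5.69% of all protein-coding genes. The strongest was rab-7, the late endosomal GTPase gene, with 309 (222 in replicate 3 and 85.0 in replicate 4). Its summit, 769 bp upstream, was nearer to W03C9.5 and also lay in the window of mex-1. The transcription factor genes hlh-30, whose product drives lysosomal and autophagy genes, and mxl-3, whose product opposes it at lipase genes, had 169 (105 in replicate 3 and 72.9 in replicate 4) and 117 (76.6 and 59.6 in replicates 3 and 4). The hlh-30 summit was in an intron, 207 bp upstream of an internal 5' end, and not in the window of the outermost one. The window of the non-coding RNA gene F35F11.4 also held it. Those of the non-coding RNA genes C49F8.5 and C49F8.9 held the mxl-3 summit. The HOPS tethering gene vps-39 had 105 (68.9 in replicate 3 and 35.65 in replicate 4). Its rank in replicate 4 was 2254, outside the strongest 1929 peaks. The gene rbc-2, a rabconnectin gene of pump assembly, had 92.6 at a summit shared with ndua-8 and Y54F10AM.15. Its signal was 56.8 in replicate 3 and 39.3 in replicate 4, and its rank in replicate 3 was 2088, outside the strongest 1929 peaks. None of 15 lysosomal hydrolase genes, 11 lysosomal membrane genes, 4 cargo receptor genes or 2 lipid kinase genes had one. A pooled summit of any rank lay at 9 of the 15 hydrolase genes and 3 of the 11 membrane genes, beside the 40.1% of all protein-coding genes.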

How the data were processed

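The authors deposited peak lists on ce10 and ce11. Only the ce11 lists were used, since the annotation (Ensembl release 115) and the genome were of that build, WBcel235. Per the deposited list of files, candidate peaks were called in each replicate and in both together against a control, and the optimal list was derived from these by irreproducible discovery rate. No source used here names the peak caller, the aligner or the threshold. Each peak carries the authors' deposited signal and a deposited −log10 q-value, which was 3.63 throughout the optimal list and was not used to rank. Coordinates are 1-based.

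Computed here with Python 3.11.15, pandas 2.3.3 and scipy 1.17.1 were the windows, counts, Clopper-Pearson intervals and word counts. The assignment of summits was tested on simulated data. With 1 group and genes as members, no test was made. Members and lists were chosen with earlier results of these data known. Named were all members, other pathway genes with an optimal summit, and genes sharing a member's optimal summit; further neighbours were named after their values were seen. Replicates are separate biological samples per the labels. Alternatives changed the window, 5' ends, assignment, overlap (at least 1 bp), list length and replicate.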

Additional observations from a re-analysis of the deposited data

How the results depend on the processing

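Over 53 alternative values, 47 stayed within 1.5 times the reported count or inside the spread of the reported value, and 6 did not. A window reaching 2000 bp upstream gave 4 V0 genes and 8 other pathway genes, against 2 and 5 as reported. A window from 500 bp upstream to 100 bp downstream gave 1 V0 and 2 V1 genes, losing vha-2, vha-11 and vha-13. The stronger 965 peaks of the optimal list gave 1 V0 gene and 2 other pathway genes. The count over all 46 genes ranged from 8, in those stronger peaks (3.13% of all protein-coding genes), to 17, in the window reaching 2000 bp upstream (7.62%), apart from the 20 within 2000 bp on either side. Without replicate 3 and without replicate 4 it was 14 each time, with the same 12 genes kept, and atg-7 and epg-9 or atg-3 and epg-9 added. V0 stayed at 2 and V1 at 4, autophagy had 8, and other pathway genes had 4 without either replicate. Counting any base of a peak gave 15 (6.21% of all genes) and the short window 9 (4% of all genes). Assigning each summit to the nearest protein-coding gene gave 11, without vha-8 (4.48% of all genes). The cause was not tested. No paired analysis was possible because the samples form 1 group. Depth is unknown, so a gene without a summit may have lacked reads, and the small sectors leave wide intervals.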

Other observations

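The members with an optimal summit were spread over all chromosomes, with 1 of 6 members on I (epg-8, whose peak spans bases 9934310 to 9934749), 1 of 7 on II, 2 of 9 on III, 3 of 13 on IV, 2 of 5 on V and 3 of 6 on X. The shares over all protein-coding genes ran from 4.00% on V to 8.26% on III, with 7.03% on X.

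Where the strongest summit was below the optimal list, the member itself had the nearest protein-coding 5' end except at vha-18, nearer to pos-1, and at vha-17. The strongest vha-17 summit (signal 48.6) was nearer to the 5' end of F49C12.12, 245 bp upstream of that gene. The epg-2 summit (37.6) lay in an intron of tpxl-1, although its nearest protein-coding 5' end was that of epg-2. The summits of vha-3 (50.9), vha-20 (58.6) and epg-9 (66.6) lay in the coding exons of these genes, as did those of atg-7, atg-3, atg-4.1 and bec-1.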
